A study of Mus musculus with 16 samples.

Results

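Chromatin accessibility was compared between tumor cells growing in the lungs and in the pancreas while Smad4 was held off. The members are the 6 samples of these 2 groups, Lung_OFF and Panc_OFF with 3 samples each, out of 16 samples in the series. They were picked by sample title, with earlier results of these data known. Both groups hold KC-shSmad4 cells, a mouse model of pancreatic ductal adenocarcinoma in which Ptf1a-Cre, active in the pancreatic lineage, switches on a Rosa26 LSL-rtTA3-IRES-mKate2 reporter, and a Col1a1 cassette carries a doxycycline-inducible, GFP-linked short hairpin RNA against Smad4. Every mouse of both groups ate doxycycline chow, so the hairpin was on and Smad4 was depleted in both. Lines derived from such tumors and transduced with luciferase were put into female Foxn1 nu athymic hosts of 6 to 8 weeks, which lack T cells but keep myeloid, B and NK cells. For Panc_OFF, 100000 cells were injected into the tail of the pancreas, and for Lung_OFF, 250000 cells were injected into the tail vein. Organ, injection route and time of growth therefore cannot be told apart. The lines come from male embryonic stem cells of mixed C57BL/6J and 129 background, and which line, and which of the hairpins, gave which sample is not given in the sources used here. Each sample is a separate mouse, from which 60000 mKate2-positive cells were sorted.

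ATAC-seq uses the Tn5 transposase, which inserts adapters where DNA is free of nucleosomes, so the number of reads over a peak measures how open that stretch of chromatin was in the sorted cells. Promoters of active genes are open in most cell types, whereas distal elements, the enhancers bound by lineage and signal-dependent transcription factors, open and close with cell state. Pancreatic cancer cells are epithelial and keep factors of the foregut endoderm such as the HNF family, and in the epithelial-to-mesenchymal transition (EMT) they gain matrix, adhesion and cytoskeletal genes. SMAD4 is the partner that TGF-β-activated SMAD2 and SMAD3 need to act on DNA, and its loss is frequent in this cancer.

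The peaks with the clearest difference in each direction are shown by their central 200 bases, so that the letters behind the strongest values can be read. On either side they are the 3 with the smallest p among called peaks without overlap between samples, 1 peak per gene, named after the protein-coding gene with the nearest start site. Bases are the plus strand of GRCm38.p6 from RefSeq, in mm10 coordinates, and capitals mark matches to any of the 21 motif families searched, which are spelled out with the motif results.
Map3k7cl, chr16:87612164-87612363: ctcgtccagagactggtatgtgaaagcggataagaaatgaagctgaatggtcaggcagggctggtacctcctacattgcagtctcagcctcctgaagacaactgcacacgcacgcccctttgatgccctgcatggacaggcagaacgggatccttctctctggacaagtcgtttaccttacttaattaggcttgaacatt
Slco2a1, chr9:103008204-103008403: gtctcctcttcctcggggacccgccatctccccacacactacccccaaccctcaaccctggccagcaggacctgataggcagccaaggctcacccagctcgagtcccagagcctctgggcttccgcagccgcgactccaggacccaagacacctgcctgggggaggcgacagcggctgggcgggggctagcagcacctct
Slco2b1, chr7:99671782-99671981: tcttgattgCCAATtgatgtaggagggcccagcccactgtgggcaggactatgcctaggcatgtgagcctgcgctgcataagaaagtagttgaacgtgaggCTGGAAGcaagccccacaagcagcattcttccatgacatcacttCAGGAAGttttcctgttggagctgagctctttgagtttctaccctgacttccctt
Ccdc42, chr11:68613558-68613757: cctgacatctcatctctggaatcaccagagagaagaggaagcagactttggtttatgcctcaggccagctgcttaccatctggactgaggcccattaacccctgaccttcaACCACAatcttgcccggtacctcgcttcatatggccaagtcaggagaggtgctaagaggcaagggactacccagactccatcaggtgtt
Syn3, chr10:86425888-86426087: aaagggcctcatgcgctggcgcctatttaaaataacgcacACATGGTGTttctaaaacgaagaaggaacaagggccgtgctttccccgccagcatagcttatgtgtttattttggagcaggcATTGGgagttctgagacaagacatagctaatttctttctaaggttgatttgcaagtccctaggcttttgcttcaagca
Pdzrn3, chr6:101378077-101378276: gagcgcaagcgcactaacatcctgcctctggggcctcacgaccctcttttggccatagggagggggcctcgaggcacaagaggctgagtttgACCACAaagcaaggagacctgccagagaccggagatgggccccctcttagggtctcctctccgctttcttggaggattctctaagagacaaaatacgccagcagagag
The first 3 were more open in the lungs and the last 3 in the pancreas. The Map3k7cl and Slco2a1 windows held no match. The Slco2b1 window held the ETS letters CTGGAAG and CAGGAAG and the NFY letters CCAAT. The Ccdc42 and Pdzrn3 windows each held ACCACA, the reverse complement of the RUNX letters, and the Syn3 window held the glucocorticoid receptor letters ACATGGTGT and the NFY letters ATTGG. A match is a string of letters and not evidence of binding.

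The intergenic peak chr16:87611528-87612999, 58198 bp from the start of Map3k7cl, had normalized read counts of 308, 278 and 351 in lung samples 1, 2 and 3 and of 98.2, 89.3 and 107 in the pancreatic samples. The peak over the start site of Slco2a1, which encodes the prostaglandin transporter (chr9:103007539-103009068), had 682, 602 and 546 in the lungs and 137, 169 and 98.2 in the pancreas. An intronic peak of Slco2b1, another organic anion transporter (chr7:99671291-99672471), had 209, 367 and 314 against 75.2, 100.1 and 58.3. At all 3, each lung sample lay above each pancreatic sample, which the choice of these peaks required. The log2 differences, lungs minus pancreas with their standard errors, were 1.66 ± 0.19, 2.20 ± 0.29 and 1.91 ± 0.26, with limma adjusted p of 0.000251, 0.000429 and 0.000509. In the other direction, the intergenic peak chr11:68612817-68614498, 18762 bp from Ccdc42, had 3.68, 9.78 and 7.75 in the lungs and 295, 422 and 385 in the pancreas. The peak chr10:86425654-86426321, in an intron of the synapsin gene Syn3, had 3.68, 3.26 and 0.86 against 114, 182 and 169. Over the start site of Pdzrn3, which encodes an E3 ubiquitin ligase (chr6:101377819-101378533), counts were 1.84, 2.17 and 1.72 against 114, 158 and 127. These 3 sites were near closed in every lung sample and clearly open in every pancreatic sample. Their log2 differences were −5.58 ± 0.49, −5.52 ± 0.49 and −5.51 ± 0.50, each with a limma adjusted p of 0.000176. From the reads summed over 3 samples, accessibility in the pancreas was 52.7-fold, 61.2-fold and 70.0-fold that in the lungs, with 95% counting intervals of 34.7 to 84.4, 30.8 to 143 and 31.9 to 192, which cover counting error only.

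**Figure D1:**
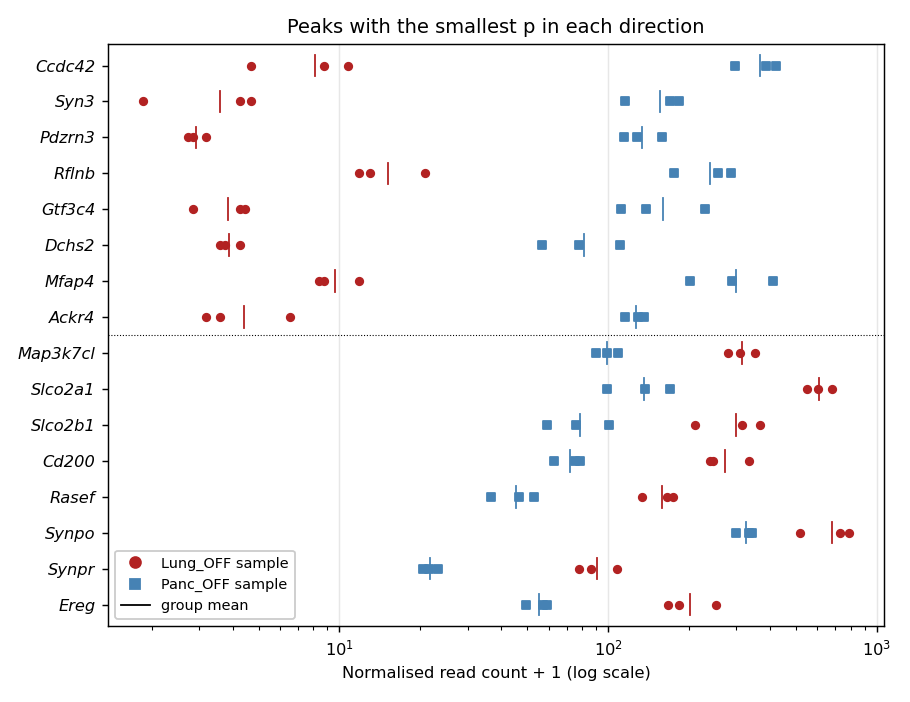
Normalized read count plus 1 (log axis) of each of the 6 samples at the 8 peaks of smallest p in each direction, with circles for Lung_OFF, squares for Panc_OFF and vertical ticks for group means. The upper 8 peaks were more open in the pancreas and the lower 8 in the lungs. At none of the 16 did the groups overlap, which was a condition of their choice.

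The table held 136630 nuclear peaks with a median width of 588 bp, and the 6 samples had between 28.2 M and 35.4 M reads in them. Pairs of pancreatic samples gave a chi-square of 4.65 to 5.41 per degree of freedom and pairs of lung samples 8.2 to 18.7, above the value near 1 of counting error alone, so no library was a copy of another and the lung samples were the more variable. Over distal chromosome 6, the 2411 peaks of chr6:124004995-149586306, lung sample 1 lay a median of 1.56 above the mean of the 6 samples on the log2 scale, against 0.16 and −0.49 for lung samples 2 and 3 and −0.55 to −0.09 for the pancreatic samples. Of these peaks 388 were called higher and 71 lower, and without lung sample 1 the counts were 134 and 141, so they were left out of the peaks of smallest p and of the loci with most calls, but not of the gene lists. The Smad4 start site had 749, 807 and 741 in the lungs and 767, 762 and 711 in the pancreas (log2 difference 0.04 ± 0.10, adjusted p 0.848), which cannot check a knockdown that acts on the transcript. The start sites of Cdkn2a and Cdkn2b lie in a stretch of chromosome 4 whose only peak had between 0 and 3.42 normalized counts in the 6 samples. Start sites of epithelial keratins were open in both groups, with mean counts of 6752 in the lungs and 5202 in the pancreas at Krt8 and of 4831 and 3852 at Krt19.

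Differences between the organs were widespread, mostly distal, and larger in the pancreas-open direction. A peak was called when its log2 difference was at least 0.58 in size and its adjusted p (limma over all peaks, Benjamini-Hochberg) at most 0.1, the limits of the study's own methods. By this rule 23685 peaks (17.3% of those tested) were called, of which 9006 (6.59%) were more open in the lungs and 14679 (10.7%) in the pancreas. The median log2 difference was 1.24 among the peaks called higher in the lungs and −1.92 among those called lower, against 0.03 over all peaks. At least 4-fold differences made up 12.6% of the higher calls (1136) and 47.1% of the lower calls (6917). Typical levels differed as well. The median peak called higher had 87.0 normalized counts in the lungs and 33.3 in the pancreas, and the median peak called lower had 15.4 in the lungs and 69.4 in the pancreas. The samples of the groups did not overlap at 32.1% of all peaks, at 89.8% of those called higher and at 97.0% of those called lower. In bulk samples, fewer cells with an open site and a site less open in each cell cannot be told apart.

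The number of calls rested on single pancreatic libraries. Without pancreatic sample 3, 3645 peaks (2.67%) were called higher and 8052 (5.89%) lower, and without pancreatic sample 2, 4323 and 10267. Leaving out any other sample gave between 17687 and 25330 calls in all. The lower calls outnumbered the higher ones in every one of these fits, and 29.6% to 40.7% of the calls were higher. Called peaks were scarce at promoters, within 1000 bp of a start site, where 2.66% were higher and 3.77% lower. Among intronic peaks 6.84% were higher and 13.1% lower, and among intergenic peaks 7.20% and 10.6%. The peaks called lower lay a median of 44509 bp from the nearest start site, those called higher 27140 bp and uncalled peaks 24795 bp. At least 1 peak called higher was found at 4041 genes and at least 1 called lower at 4813.

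Among the remaining peaks of smallest p, those more open in the lungs included an intergenic site 28806 bp from Cd200, whose product restrains myeloid cells through a receptor. Its counts were 244, 334 and 238 in the lungs and 77.7, 74.1 and 62.0 in the pancreas (log2 difference 1.90 ± 0.27, adjusted p 0.000593). Intronic sites of Rasef, a Rab-like GTPase gene, and of Synpr, a synaptic vesicle protein gene, differed by 1.81 ± 0.26 and 2.05 ± 0.30, and one of Synpo, whose product binds actin, by 1.04 ± 0.15. A site 31087 bp from Ereg had 183, 251 and 166 in the lungs and 56.4, 48.2 and 58.3 in the pancreas (1.84 ± 0.27). All lung samples exceeded all pancreatic samples at each of these sites, again a condition of their choice. More open in the pancreas were the start sites of Mfap4, a microfibril-associated matrix protein, with 7.36, 10.9 and 7.75 in the lungs against 199.8, 288 and 409 in the pancreas, and of Ackr4, a chemokine-scavenging receptor, with 5.52, 2.17 and 2.58 against 114, 128 and 135. Both were almost without reads in every lung sample, and their log2 differences were −4.91 ± 0.47 and −4.91 ± 0.48. Sites within Rflnb, whose product binds filamin, Gtf3c4, a subunit of a factor of RNA polymerase III, and Dchs2, a cadherin-related gene, differed by −3.99 ± 0.37, −5.33 ± 0.50 and −4.35 ± 0.41. Each of the 16 peaks passed the rule in all 17 alternative analyses. In the 2 liver samples with Smad4 off, given side by side only, the mean count was between 7.11 and 90.2 at the 8 peaks open in the pancreas, and between 131 and 945 at those open in the lungs other than Synpr, where it was 9.81.

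Some genes held many calls in 1 direction. Of 17577 genes with a peak nearest to them within 100 kb, 624 had 3 or more peaks called higher and 1244 had 3 or more called lower, 370 and 859 of them with no call the other way. Among the 5 genes with the most calls in this direction, net of calls in the other, was Cpm, which encodes the membrane enzyme carboxypeptidase M. Of its 19 peaks 15 were called higher and 0 lower by limma, and the median log2 difference was 1.83. At Lpar3, a lysophosphatidic acid receptor, 12 of 21 were higher and 0 lower (7 without pancreatic sample 3). Slco2a1 had 14 higher and 1 lower of 27 (5 higher without pancreatic sample 3), Itpk1, an inositol phosphate kinase, 13 higher of 24 (6 without pancreatic sample 2 and 5 without sample 3), and Arhgef3, a guanine nucleotide exchange factor gene, 15 higher and 3 lower of 45 (10 higher without pancreatic sample 3). The counts at these genes, other than Cpm, thus moved with the samples fitted. So did the higher calls over all peaks, which were 9006 with all samples and 3645 without pancreatic sample 3. The 5 genes with the most lower calls, net of higher ones, included Dlc1, a GTPase-activating tumor suppressor, with 22 of 34 peaks lower, 0 higher and a median of −1.79. Timp3, an inhibitor of matrix metalloproteinases, had 22 of 27 lower (median −1.67), and Plcb4, a phospholipase C, 18 of 20 (median −2.56). Palld, whose product bundles actin, had 24 of 55 lower and 1 higher, and Zbtb20, a zinc finger repressor, 21 of 55 lower (12 without pancreatic sample 3). For the other 4 of these loci, leaving out any sample gave between 14 and 25 lower calls.

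Fibroblast and matrix genes had the largest shares of peaks that were less open in the lungs among the 26 gene lists. At 13 fibroblast genes 58 of 126 peaks (46.0%) were lower and 3 higher (1 without pancreatic sample 3), with a median log2 difference of −1.02, against 10.7% lower over all peaks. Leaving out 1 sample gave 45 to 66 lower calls. All 8 peaks of Postn, which encodes the matrix protein periostin, 13 of 14 of Col1a2, a chain of collagen I, and 8 of 10 of Thy1, a surface glycoprotein, were lower. The start site of Lum, the small proteoglycan lumican (chr10:97564896-97565979), had 6.44, 5.43 and 6.03 in the lungs and 115, 176 and 272 in the pancreas (−4.68 ± 0.65, adjusted p 0.000563). At Dcn, the related decorin, counts were 12.9, 20.6 and 21.5 against 89.7, 94.7 and 166 (−2.58 ± 0.45, adjusted p 0.00211). The Col1a2 start site had 5.52, 3.26 and 5.17 against 48.7, 32.2 and 185 (−3.60 ± 0.65, adjusted p 0.00241). None of these overlapped between the groups, and pancreatic sample 3 was the highest at all of them. Pdgfra, a growth factor receptor of fibroblasts, had 16.6, 8.69 and 6.03 against 47.8, 42.0 and 105 (−2.51 ± 0.57, adjusted p 0.00913). Over the 9 start-site peaks of the list, 6 were lower, and their summed count was 1505 to 1908 in the lung samples and 2633 to 3576 in the pancreatic samples. These genes mark fibroblasts as well as tumor cells in a mesenchymal state. The share of nuclear reads on the Y chromosome, which the lines carry and the female hosts lack, was 0.0121% to 0.0151% in the lungs and 0.0142% to 0.0184% in the pancreas. The part of host fibroblasts in these values was not tested.

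Matrix genes followed, with 97 of 266 peaks lower (36.5%) and 8 higher (3.01%), against 10.7% and 6.59% of all peaks, and a median of −0.49. Without pancreatic sample 3, 63 were lower and 2 higher. The higher calls were 4, 5 and 2 without pancreatic samples 1 and 2 and lung sample 3. At Col8a1, a short-chain collagen, 16 of 20 peaks were lower, and its start site had 309, 211 and 341 in the lungs and 483, 620.0 and 671 in the pancreas (−1.06 ± 0.28, adjusted p 0.0203). The start site of Timp3 had 17.5, 36.9 and 66.3 against 220.3, 244 and 319 (−2.84 ± 0.46, adjusted p 0.00126), and that of Col12a1, a fibril-associated collagen, 359.9, 353 and 581 against 749.8, 892 and 847 (−0.98 ± 0.21, adjusted p 0.0063). Lung samples lay below pancreatic samples at all 3. The collagen IV genes, part of basement membrane, had 4 of 21 peaks (Col4a1) and 3 of 12 (Col4a2) lower, and no call at the start site they share. Tnc, which encodes tenascin C, had 7 of 29 peaks lower with a start-site difference of −0.01.

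EMT genes had 53 of 233 peaks (22.7%) lower and 7 higher, with a median of −0.35 (32 lower and 3 higher without pancreatic sample 3, and 0, 3 and 2 higher without pancreatic sample 2 and lung samples 1 and 3). Called start sites were few. Zeb2, a repressor of epithelial genes (chr2:45113036-45113694), had 15.6, 16.3 and 6.03 at its start site in the lungs and 91.4, 121 and 83.3 in the pancreas (−2.96 ± 0.46, adjusted p 0.00103), the 1 called peak of its 16. A start site of Tcf4, a basic helix-loop-helix factor, had 3.68, 3.26 and 0.86 against 38.4, 44.7 and 63.9 (−3.87 ± 0.62, adjusted p 0.00125), and 18 of the 53 peaks of this gene were lower. At Sparc, a collagen-binding glycoprotein, counts were 269, 214 and 402 against 653, 719 and 808 (−1.34 ± 0.31, adjusted p 0.0102), and 6 of its 11 peaks were lower, as were 11 of 18 peaks of Prrx1, a mesenchymal homeobox gene. The groups did not overlap at these start sites. The start sites of the other regulators of EMT were not called, with log2 differences of −0.16 at Zeb1, 0.04 at Snai1, −0.23 at Snai2 and −0.34 at Twist1. Twist2, a related factor, went the other way, with 1022, 728 and 974 in the lungs against 656, 350.2 and 629.7 in the pancreas (0.77 ± 0.23, adjusted p 0.0391), a call lost without pancreatic sample 2 (0.48) and without lung sample 3 (0.72).

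**Figure D2:**
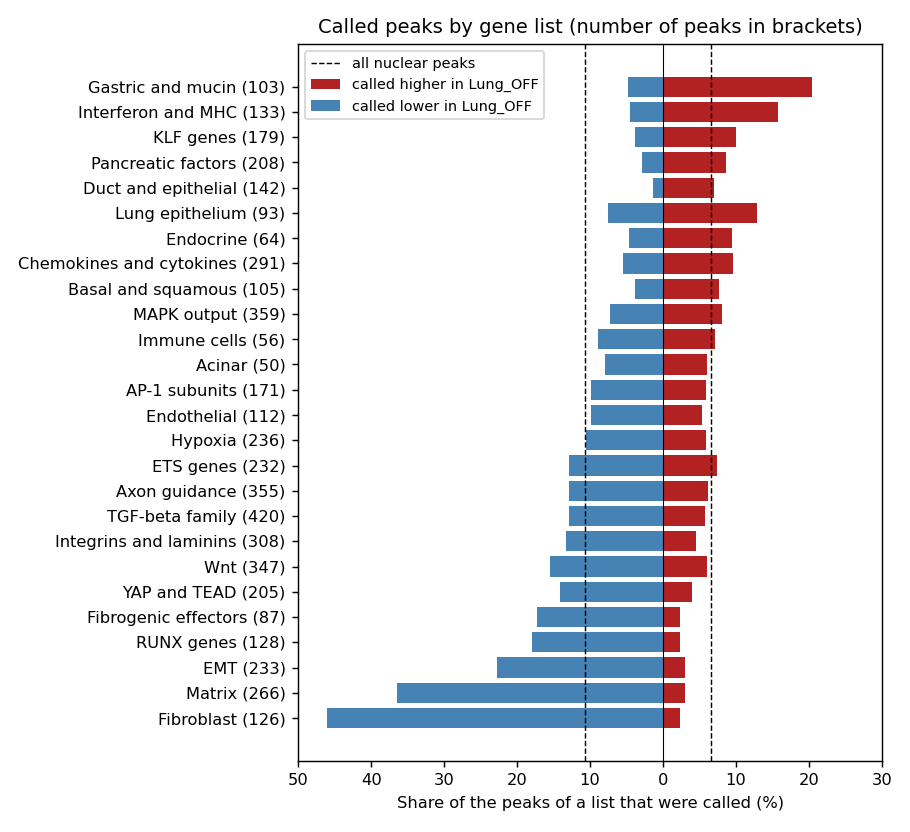
Share of the peaks of each of 26 gene lists called higher (right) or lower (left) in Lung_OFF, in percent, with the number of peaks in brackets and dashed lines at the shares of all nuclear peaks, 6.59% and 10.7%. Fibroblast, matrix and EMT genes reach furthest to the left, with 46.0%, 36.5% and 22.7% lower, and gastric and mucin genes furthest to the right, with 20.4% higher.

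The list of RUNX genes, which also holds Runx1t1, had 23 of 128 peaks lower (17.97%, against 10.7% of all peaks) and 3 higher (2.34%, against 6.59%). Without pancreatic sample 3 the list had 15 lower and 0 higher, and without pancreatic sample 2, 0 higher. Runx1t1, not itself a RUNX factor, had 5 of 5 peaks lower. Of the 6 start-site peaks 2 were called, both lower, at Runx1t1 (−2.04 ± 0.66, limma adjusted p 0.0552) and Runx3 (−1.69 ± 0.61, limma adjusted p 0.0826). Both calls were lost without pancreatic sample 2 or 3, among other alternatives. At Runx1, a factor of blood and epithelial progenitors, 10 of 54 peaks were lower while its start site did not pass, with 2409.8, 2702 and 2373 in the lungs and 2709, 2483 and 2595 in the pancreas (−0.06 ± 0.09, adjusted p 0.713). An intronic Runx1 site 63784 bp from the start had 1.84, 1.09 and 2.58 against 21.4, 40.2 and 69.5 (−3.86 ± 0.51), and one of Runx2, a bone and mesenchymal factor, 22.1, 7.61 and 6.89 against 66.6, 76.8 and 106 (−2.83 ± 0.52). Both distal sites were lower in every lung sample. YAP and TEAD genes, which act downstream of Hippo signaling, had 29 of 205 peaks lower (14.1%) and 8 higher (3.90%), against the same shares of all peaks. These counts were 14 and 2 without pancreatic sample 3 and 18 and 3 without sample 2, and the higher calls 5 without lung sample 2 and 13 without lung sample 3. The lower calls were led by a site 74991 bp from Tead1 with 4.6, 1.09 and 2.58 against 84.5, 121 and 132 (−5.01 ± 0.59, adjusted p 0.000284). The list genes Tead4, Etv6, Iapp and Vwf, and 21 of the 347 peaks of the Wnt list, lie on distal chromosome 6. Lung sample 1 was the highest sample at the named sites of Tead4 and Iapp.

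TGF-β family genes had 54 of 420 peaks (12.9%) lower and 24 higher, with 0 of 26 start-site peaks called by limma and a median of 0.02. Over all peaks 10.7% were lower and 6.59% higher, against 5.71% higher in this list. The lower calls numbered 31 without pancreatic sample 3, 34 without pancreatic sample 2 and 36 without lung sample 2, and the higher calls 6 without pancreatic sample 3 and 13 without pancreatic sample 2. Distal sites stood out in both directions. An intronic site 67921 bp from the ligand gene Tgfb3 had 1.84, 4.35 and 7.75 in the lungs against 67.5, 73.3 and 138 in the pancreas (−4.13 ± 0.55, adjusted p 0.000434), and 9 of the 15 peaks of this gene were lower. For Ltbp1, whose product holds latent TGF-β in the matrix, an intronic site differed by −4.12 ± 0.66, and for the type II receptor Tgfbr2 one had 14.7, 8.69 and 13.8 against 70.9, 68.8 and 83.3 (−2.52 ± 0.53). A site 40552 bp from Smad2 was higher, with 180.4, 261 and 355 in the lungs against 119.6, 121 and 106 in the pancreas (1.14 ± 0.24, adjusted p 0.0066). Sample ranges did not overlap at these sites.

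The fibrogenic and cytostatic effectors of SMAD4 that the study follows showed few called differences at their start sites while Smad4 was off. Of 8 start-site peaks in the list, 1 was called. It was Has2, a hyaluronan synthase, with 1486, 1245 and 1539 in the lungs against 1939, 2229 and 2393 in the pancreas (−0.62 ± 0.13, adjusted p 0.0069), a call lost without pancreatic sample 3 (−0.55) and without lung sample 2 (−0.53). The start site of Cdkn1c, the cell-cycle inhibitor p57, had 287, 366 and 342 against 307, 350.2 and 344 (−0.01 ± 0.14, adjusted p 0.968). Differences at the other start sites were 0.08 ± 0.20 for the cytokine Il11, 0.02 ± 0.21 for Col6a1, a chain of collagen VI, 0.11 ± 0.11 for the fibronectin receptor subunit Itga5, −0.31 ± 0.22 for Ccbe1, which helps to activate VEGF-C, and 0.03 ± 0.10 for Id1, an inhibitor of helix-loop-helix factors. Their adjusted p ranged from 0.393 (Ccbe1) to 0.971 (Col6a1). Ccn4, a matricellular protein, had the widest gap among the uncalled, with 238, 261 and 492 against 512, 741 and 819 (−1.11 ± 0.45, adjusted p 0.115). Its samples did not overlap, and it passed in 3 of 17 alternatives, under quantile normalization, with only the 6 samples fitted (adjusted p 0.0414, the lowest) and without lung sample 3. Over all 87 peaks of the list 15 were lower (17.2%, against 10.7% of all peaks) and 2 higher (1 without pancreatic sample 3 or lung sample 3), among them distal sites near Col6a1 (−2.57 ± 0.56), Ccbe1 (−2.22 ± 0.40) and Ccn4 (−2.40 ± 0.53), and leaving out 1 sample gave 11 to 20 lower calls.

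On the lung side, gastric and mucin genes had the largest share of called peaks, with 21 of 103 higher (20.4%, against 6.59% over all peaks), 5 lower and a median of 0.35. This count was 6 without pancreatic sample 2, 6 without pancreatic sample 3, 10 without lung sample 2 and 30 without lung sample 1. Without pancreatic sample 2 or sample 3 the interferon and antigen-presentation genes, at 13 and 10 of 133, had the larger share. The higher peaks were mainly at Hnf4g, an endodermal nuclear receptor, with 8 of 21, and Agr2, a disulfide isomerase of mucus-making cells, with 7 of 14. The Agr2 start site (chr12:35991912-35993859) had 313, 302 and 277 in the lungs against 161, 51.8 and 83.3 in the pancreas (1.73 ± 0.41, adjusted p 0.0118). An intronic Hnf4g site had 48.8, 136 and 64.6 against 23.9, 10.7 and 35.2 (1.80 ± 0.44, adjusted p 0.0138). Both kept the call without any 1 sample. The start sites of the mucin Muc5ac (0.22) and of the trefoil factors Tff1 (−0.05), Tff2 (0.24) and Tff3 (0.44) were not called, and Onecut3, a homeobox gene, had 4 of 10 peaks lower.

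Epithelial and ductal genes had 10 of 142 peaks higher (7.04%, near the 6.59% of all peaks) and 2 lower (1.41%, against 10.7%), with 1 of 17 start-site peaks called. This was Grhl2, with 85.6, 57.6 and 43.1 in the lungs against 25.6, 32.2 and 29.6 in the pancreas (1.02 ± 0.34, adjusted p 0.0628), a call lost without any 1 sample other than lung sample 3. The higher calls numbered 5 without pancreatic sample 2, 6 without pancreatic sample 3 and 16 without lung sample 1. The higher peaks were at Grhl2, a factor that maintains epithelial junctions (6 of 27), and Epcam, an epithelial adhesion molecule (4 of 24), where a site 9749 bp from the start had 42.3, 92.4 and 50.8 in the lungs against 10.2, 18.8 and 14.8 in the pancreas (1.97 ± 0.39, adjusted p 0.00453). Counts over the start sites of the list summed to 25143 to 38468 in the lung samples and 25100 to 27740 in the pancreatic samples, ranges that overlap. Factors of pancreas and foregut endoderm had 18 of 208 peaks higher (8.65%) and 6 lower (2.88%), against 6.59% and 10.7% of all peaks. There were 10 higher without pancreatic sample 2, 5 without pancreatic sample 3 and 10 without lung sample 3, and 1 lower without pancreatic sample 3. KLF genes had 18 of 179 higher (10.1%) and 7 lower (3.91%), against the same shares of all peaks. For these there were 8 higher without pancreatic sample 2 and 7 without sample 3, and 0 lower without pancreatic sample 3 and 4 without lung sample 3. A site 60058 bp from Klf4, a factor of differentiated epithelium, had 585, 590.1 and 589 in the lungs against 344, 344 and 323 in the pancreas (0.80 ± 0.17, adjusted p 0.00657), without overlap. Among all 20 peaks of Klf4 1 was higher and 4 were lower (0 without pancreatic sample 3), and its start site differed by −0.07 ± 0.08 (adjusted p 0.658). A site 28896 bp from Klf6 had 119.7, 139 and 169 against 42.7, 56.3 and 30.6 (1.73 ± 0.42, adjusted p 0.013).

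Interferon and antigen-presentation genes had 21 of 133 peaks higher (15.8%, against 6.59% of all peaks) and 6 lower (4.51%, against 10.7%), with a median of 0.26. There were 13 higher without pancreatic sample 2 and 10 without sample 3, and 2 lower without either of them. Of the higher peaks 8 belonged to Irf8, an interferon regulatory factor known from myeloid cells, out of its 13. Its start site (chr8:120735852-120736881) had 573, 281 and 309 in the lungs against 159.7, 112 and 100.01 in the pancreas, with lung sample 1 the highest and no overlap (1.59 ± 0.35, adjusted p 0.00764), and kept the call in all 17 alternatives. Of the 20 start-site peaks of the list 2 others were called, both higher. They were Nlrc5, an activator of MHC class I genes (0.63 ± 0.21, adjusted p 0.0562), a call lost without pancreatic samples 2 or 3 or lung samples 1 or 2, and Cd74, the MHC class II invariant chain (1.35 ± 0.51, adjusted p 0.0947), a call lost without any 1 sample and in 3 other alternatives. Irf1, Isg15 and B2m were not called, with differences of −0.04, −0.09 and −0.13. Chemokine and cytokine genes had 28 of 291 higher (9.62%) and 16 lower (5.50%), against 6.59% and 10.7% of all peaks (11 higher without pancreatic sample 3 and 17 without lung sample 3). The neutrophil chemokine gene Cxcl2 had 392, 491 and 515 at its start site in the lungs against 205, 266 and 214 in the pancreas (1.03 ± 0.18, adjusted p 0.0022), and the monocyte chemokine gene Ccl7 had 13.8, 15.2 and 9.48 against 39.3, 61.6 and 82.4 (−2.13 ± 0.48, adjusted p 0.00866). The former was higher and the latter lower in every lung sample.

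Sites at growth factor and signaling genes went both ways. Ereg, which encodes the EGF receptor ligand epiregulin, was less open in the lungs at its start site (chr5:91073580-91076290), with 77.3, 50.0 and 43.1 against 473, 382 and 293 (−2.75 ± 0.37, adjusted p 0.000466), although the site 31087 bp away was more open there. Genes of MAPK output, to which Ereg belongs, had 29 of 359 peaks higher (8.08%, near the 6.59% of all peaks) and 26 lower (7.24%, below the 10.7%) (16 higher without lung sample 2, 17 without pancreatic sample 2 and 17 without sample 3, and 14 lower without pancreatic sample 3). A site 33037 bp from Dusp6, an ERK phosphatase, had 10.1, 6.52 and 6.89 in the lungs against 76.9, 112 and 193 in the pancreas (−3.78 ± 0.54), and one 65969 bp from Myc 21.2, 19.6 and 14.6 against 82.8, 89.3 and 102 (−2.26 ± 0.44). Both were lower in all lung samples. Wnt genes had 54 of 347 lower (15.6%) and 21 higher (6.05%), against 10.7% and 6.59% of all peaks. They had 34 lower and 9 higher without pancreatic sample 3 and 36 and 13 without sample 2. Of the 347 peaks 21 lie on distal chromosome 6, and without lung sample 1 the list had 42 lower and 23 higher. The start site of the ligand Wnt9a had 687, 619 and 669 against 1143, 1302 and 1391 (−0.95 ± 0.16, adjusted p 0.00151). AP-1 subunit genes had 10 of 171 higher (5.85%) and 17 lower (9.94%), both near the shares of all peaks (10 lower without pancreatic sample 3, 6 higher without pancreatic sample 2, 6 without pancreatic sample 3 and 6 without lung sample 3). Of the related BACH factors, a site near Bach1 had 128, 115 and 165 against 24.8, 24.1 and 27.8 (2.35 ± 0.35, adjusted p 0.000801), and one in Bach2, where 11 of 46 peaks were lower, 8.28, 2.17 and 4.31 against 52.1, 56.3 and 76.9 (−3.52 ± 0.50, adjusted p 0.000593). Other lists lay at or a little above the 10.7% of all peaks. Integrin and laminin genes had 41 of 308 lower (13.3%), axon guidance genes 46 of 355 (13.0%, 26 peaks without pancreatic sample 3), ETS genes 30 of 232 (12.9%, 16 peaks without pancreatic sample 3) and hypoxia genes 25 of 236 (10.6%, 13 peaks without pancreatic sample 3 and 16 without sample 2). Basal and squamous genes had 8 of 105 higher (7.62%, against 6.59%), 0 of them without pancreatic sample 2 or without sample 3.

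**Figure D3:**
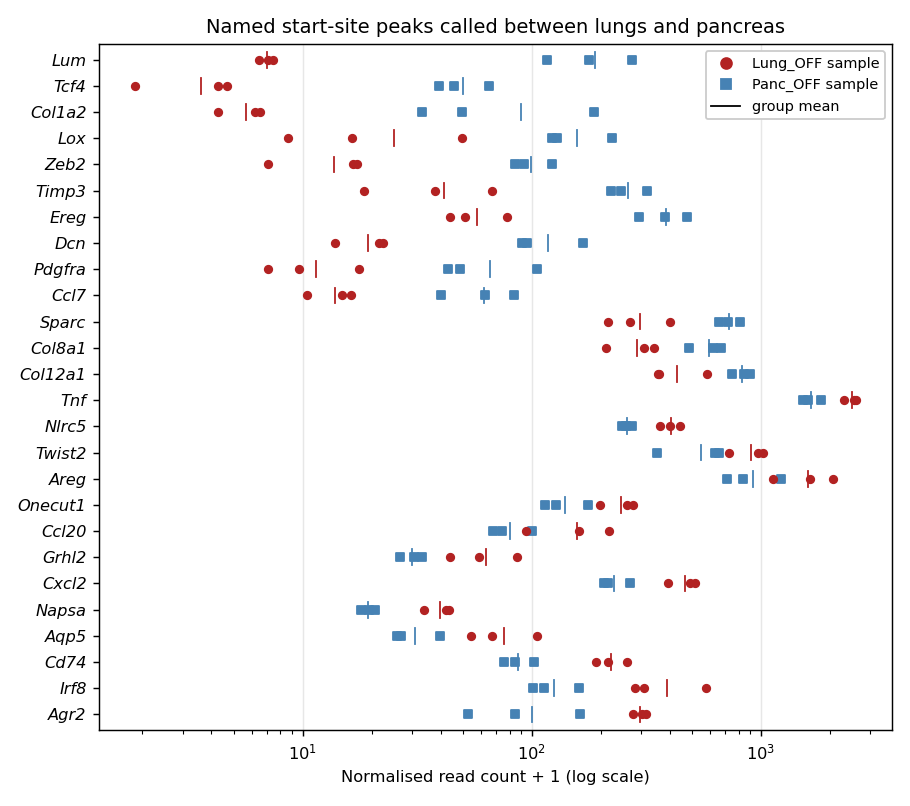
Normalized read count plus 1 (log axis) of each sample at 26 called start-site peaks of 10 gene lists, circles for Lung_OFF, squares for Panc_OFF and ticks for group means, ordered by log2 difference. Lum, at 5.43 to 6.44 in the lungs and 115 to 272 in the pancreas, differs most toward the pancreas and Agr2 most toward the lungs, and single samples of the 2 groups overlap at Areg and Ccl20.

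Markers of other cells that a sort from these organs could hold were examined on their own. Immune genes had 4 of 56 peaks higher (7.14%, against 6.59% of all peaks, 1 without pancreatic sample 1 or 3) and 5 lower (8.93%, against 10.7%, 1 without pancreatic sample 2 or 3, 3 without pancreatic sample 1 and 2 without lung sample 2), and 0 of 6 start-site peaks were called by limma, with a summed count of 1958 to 2260 in the lungs and 1672 to 1769 in the pancreas. No start-site peak was found among the peaks analysed for Ptprc, Spi1, Adgre1, Lyz2, Itgam, Tyrobp, Cd79a, Cd3e or Lck, defining genes of leukocytes, macrophages and lymphocytes. The immune sum was higher in every lung sample than in any pancreatic sample, and its part in the interferon and chemokine results was not tested. Endothelial genes had 11 of 112 lower (9.82%) and 6 higher (5.36%), near the 10.7% and 6.59% of all peaks. The higher calls numbered 0 without pancreatic sample 2, 2 without pancreatic sample 3, 11 without lung sample 2 and 19 without lung sample 3. Of the 7 endothelial start-site peaks 1 was called higher and 1 lower, the lower call being lost without pancreatic sample 2. Their summed count was 1646 to 2472 in the lungs and 1417 to 1566 in the pancreas. Like the immune sum, it was higher in every lung sample than in any pancreatic sample. The part of endothelial cells in it was not tested. At the start site of Cdh5, the endothelial cadherin, counts were 697, 129 and 54.3 in the lungs against 49.5, 26.8 and 58.3 in the pancreas, so that lung sample 1 alone stood far above (log2 difference 1.97, adjusted p 0.0711), and the call was lost without lung sample 1 (0.96) and without pancreatic samples 1 (2.08), 2 (1.65) or 3 (2.19). Lung epithelial genes had 12 of 93 peaks higher (12.9%, against 6.59% of all peaks) and 7 lower (7.53%, against 10.7%). The higher calls numbered 7 without pancreatic sample 1 and 5 without sample 3. The summed start-site count of these genes was 2646 to 3092 in the lungs and 2500 to 2846 in the pancreas. Of the 9 start-site peaks 2 were called higher and 0 lower, with a median log2 difference of 0.45. The defining genes Nkx2-1 and Sftpc had no start-site peak. Aqp5, a water channel of alveolar type 1 and gland cells, had 104, 53.3 and 66.3 against 24.8, 25.9 and 38.9 (1.26 ± 0.36, adjusted p 0.03), a call lost without pancreatic sample 2 (1.18). A peak of Napsa, also on this list, was called higher, a call lost without pancreatic samples 2 (0.98) or 3 (1.04) or lung sample 2 (0.98). The part of host lung epithelium in these values was not tested. Acinar genes had 3 of 50 higher (6.00%, 1 peak without pancreatic sample 3 or lung sample 1) and 4 lower (2 without lung sample 2), against 6.59% and 10.7% of all peaks. Endocrine genes had 6 of 64 higher (9.38%, 3 peaks without pancreatic sample 3 and 11 without lung sample 1) and 3 lower (4.69%). Although 0 start-site peaks were called by limma in either list, single distal sites were near closed in the lungs. A site 72569 bp from Pnlip, the pancreatic lipase, had 3.68, 4.35 and 0.86 in the lungs against 45.3, 74.1 and 92.6 in the pancreas (−4.26 ± 0.77, adjusted p 0.00244), and an intronic one of Cpa1, carboxypeptidase A1, 5.52, 1.09 and 0 against 30.7, 50.0 and 51.9 (−4.21 ± 0.77, adjusted p 0.00269). An intronic site of Pax6, an endocrine homeobox factor, had 3.68, 5.43 and 4.31 against 71.7, 96.5 and 67.6 (−3.86 ± 0.49, adjusted p 0.000374). These 3 calls held in all 17 alternatives, and the part of acinar or endocrine cells in them was not tested.

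Letters of transcription factor motifs in the central 200 bases were read across all peaks, as shares of the peaks holding them and without a test. Of the 2618 peaks (1.92% of all) with the HNF4 letters CAAAGTNCA, 10.1% were called higher in the lungs and 5.12% lower, against 6.59% and 10.7% of all peaks. HNF1 letters (GTTAATNAT) gave 9.48% and 5.32% of 1392 peaks, FOX letters (TNTTTAC) 9.31% and 8.06% of 17440, and GATA letters (AGATAA) 9.37% and 9.06% of 16074. For ZEB letters (CAGGTA) 5.43% were lower, and for KLF letters (GGGNGTGG) 7.66%. These families lay on the lung side or below the background of lower calls. The palindromic SMAD letters GTCTAGAC, held by 320 peaks, went the other way, with 20.9% lower and 2.50% higher (median log2 difference −0.25). Over whole peaks the 1238 with these letters had 13.9% lower and 3.88% higher. TEAD letters (CATTCCA) gave 15.1% lower and 6.94% higher of 6949 peaks, and RUNX letters (TGTGGT) 12.8% and 6.08% of 27098. AP-1 letters (TGANTCA), in 38420 peaks, gave 9.98% lower and 6.63% higher, close to the background, but 12.3% and 5.22% without lung sample 1 (all peaks 11.5% and 7.00%) and 6.26% and 6.48% without lung sample 2 (all peaks 7.68% and 5.27%), so its side of the background turned with single lung libraries. The other families searched were ETS (CNGGAAG, in 18.05% of peaks), NFY (CCAAT, 23.1%), the glucocorticoid receptor (ACANNNTGT, 6.83%), CEBP (TTGCNNAA, 9.62%), ISRE (GAAANNGAA, 6.09%), CTCF (CNAGGNGGC, 3.64%), NF-kB (GGGNNTTTC, 3.48%), SOX (CCATTGT, 2.85%), HIF (TACGTG, 2.18%), STAT (TTCCNGGAA, 0.904%) and ONECUT (ATCGAT, 0.834%). Among their peaks 3.90% (CTCF) to 9.66% (NF-kB) were higher and 5.88% (ONECUT) to 12.3% (ISRE) lower. Both strands were searched, overlapping motifs were each counted, and N stands for any base. Without each sample in turn SMAD-letter peaks were 14.4% to 23.1% lower, above the share of all peaks in each fit. The higher share was 4.53% (without pancreatic sample 3) to 15.0% (without lung sample 1) for HNF1, 3.89% to 9.90% for FOX and 4.06% to 10.5% for GATA, the lowest of each without pancreatic sample 3 and each above the share of all peaks in the same fit. In the central 200 bases the lower share was 8.48% to 15.6% for TEAD and 6.99% to 13.7% for RUNX, again above all peaks in each fit. It was 2.85% to 5.74% for ZEB and 4.17% to 7.73% for KLF, below all peaks in each. The higher share of HNF4-letter peaks ran from 4.09% (without pancreatic sample 3, when all peaks gave 2.67%) to 13.6%, and without lung sample 2 it was 4.85%, below the 5.27% of all peaks. It was 4.13% without pancreatic sample 2. Peaks with HNF4 letters held 4.93% promoters and a median GC content of 44.2%, and those with SMAD letters 7.50% and 45.3%, against 10.8% promoters over all peaks. For RUNX letters these values were 5.17% and 45.0%, and for TEAD letters 4.40% and 44.7%.

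**Figure D4:**
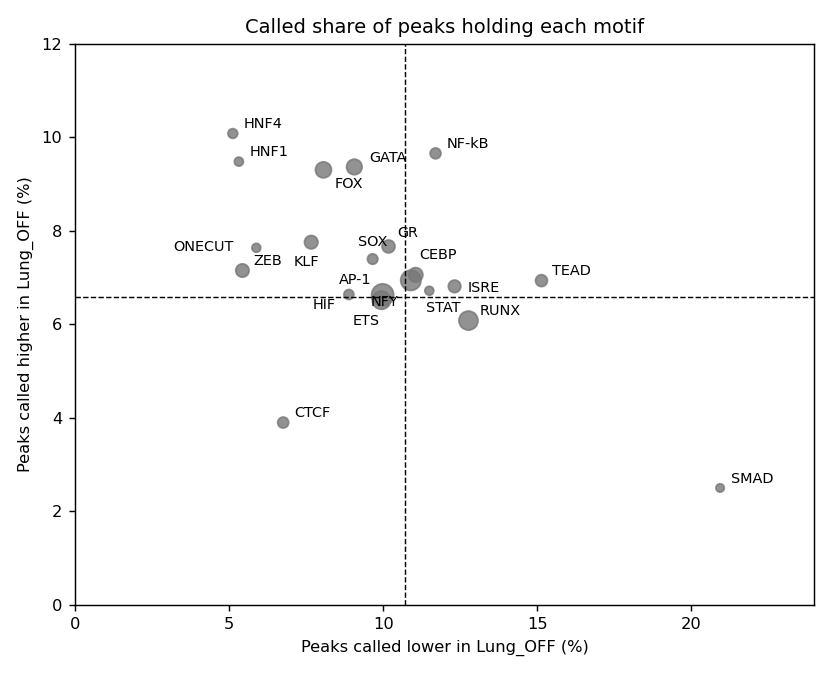
Each circle is a motif family, placed by the share of peaks holding its letters in the central 200 bases that were called lower (horizontal axis, percent) or higher (vertical axis, percent) in Lung_OFF, with area growing with the number of peaks and dashed lines at the shares of all peaks, 10.7% and 6.59%. SMAD stands at 20.9% lower and 2.50% higher, HNF4 at 5.12% lower and 10.1% higher.

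The organs were compared again in 6 other samples, Lung_ON and Panc_ON with 3 mice each. In these, doxycycline had been withdrawn 6 weeks (lungs) or 4 weeks (pancreas) after injection. Smad4 was restored for 14 days by the labels, although the column names of the lung samples give another day. In these samples 12.8% of all peaks were called higher in the lungs and 14.9% lower. Of the 14679 peaks lower in the lungs with Smad4 off, 95.8% had the same sign and 77.5% (11378) were called lower again, with a median log2 difference of −1.86 where it had been −1.92. Of the 9006 higher peaks, 86.6% had the same sign and 40.8% (3674) were called again, with a median of 0.69 where it had been 1.24. Peaks chosen for a call with Smad4 off lie on average further from 0 there, so a smaller value in samples that did not choose them is partly given by the choice. Calls in the opposite direction made up 0.333% of the higher and 0.307% of the lower peaks. At 63.6% of all calls (15052) the same direction was called again, and leaving out 1 sample with Smad4 off gave 57.6% (without lung sample 2) to 75.1% (without pancreatic sample 2). The loci with many calls followed, with 12 of 19 peaks higher at Cpm and 29 of 34 lower at Dlc1, although Lpar3 had 3 of 21 higher. The strongest pancreas-open peaks had log2 differences of −4.79 (Ccdc42), −5.21 (Syn3) and −4.61 (Pdzrn3) there, and the lung-open ones 0.60 (Map3k7cl), 0.92 (Slco2a1) and 1.57 (Slco2b1).

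**Figure D5:**
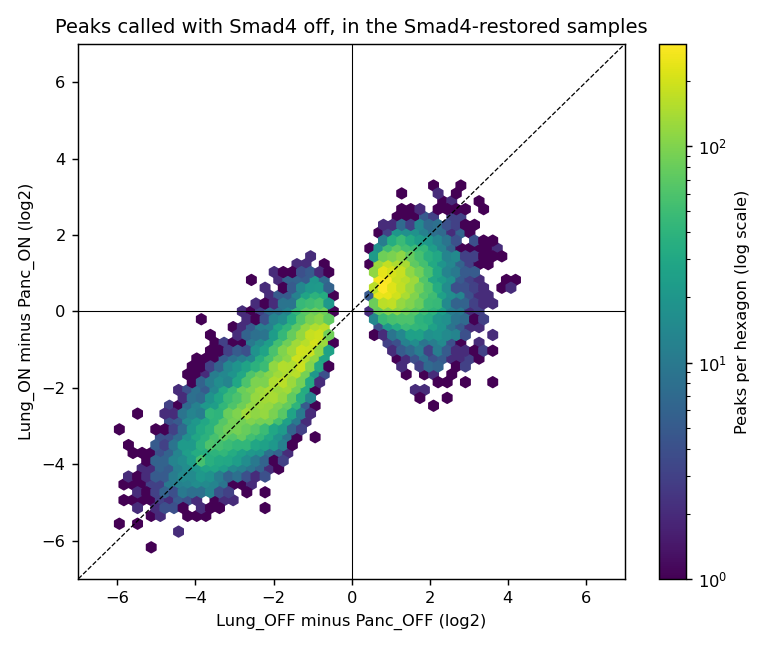
Log2 difference between lungs and pancreas at the 23685 called peaks with Smad4 off (horizontal axis) and in the Smad4-restored samples (vertical axis), colored by the number of peaks per hexagon on a log scale, with a dashed line where both are equal. Lower calls follow the dashed line, with medians of −1.92 and −1.86, and higher calls lie mostly between it and 0, with medians of 1.24 and 0.69.

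The difference itself, the organ contrast with Smad4 off minus that with Smad4 restored, was called at 0 peaks by limma (14973 at an unadjusted p under 0.05), at 0 by edgeR (17267) and at 2255 by DESeq2 (17738). Irf8 was the named gene that was called in opposite directions. With Smad4 restored its start site had 92.0 ± 40.5 (SD, n = 3) in the lungs and 217 ± 92.5 (SD, n = 3) in the pancreas, a log2 difference of −1.24 (limma adjusted p 0.0173), where it had been 1.59 with Smad4 off. The difference between the contrasts was 2.83 with an adjusted p of 0.229 by limma, so that it did not pass the correction over all peaks. At the Col1a2 start site the difference was −3.60 with Smad4 off and −1.27, not called, with Smad4 restored, and at Lum it was −4.68 and −4.59. The fibroblast list as a whole had 72 of 126 peaks lower and 5 higher in the restored samples, the matrix list 120 of 266 and 8, and the gastric and mucin list 45 of 103 higher and 1 lower. The interferon and antigen-presentation list did not keep its lung side, with 18 of 133 higher, 14 lower and a median of 0.08. Over all peaks 12.8% were higher and 14.9% lower in the restored samples.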

How the data were processed

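Bulk ATAC-seq of mKate2-positive cells sorted from tumors was analysed. Groups and replicate numbers came from sample titles. Column names state whether doxycycline was given, and the drug means that Smad4 is off. The deposited values are a signal, normalized counts of reads per peak. The authors used trimGalore and cutadapt for trimming, Bowtie2 for alignment to mm10 and MACS2 for peaks (p up to 0.001, blacklist removed). Peaks within 500 bp were merged over all samples, featureCounts gave the reads and DESeq2 the size factors. Per the labels, FastQC 0.11.5 was also run. Whether read ends were shifted for Tn5, whether duplicates were removed and which filter the table had is not given in the sources used here. Remaining duplicates would narrow the counting intervals.

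Values were whole multiples of 1 read in each sample (100% of values within 0.1 of a whole number), so reads were recovered. The mitochondrial row (1.43% to 2.60% of reads in the 6 samples) was left out. The test was limma 3.58.1 (R 4.3.3, trend and robust) on log2(normalized count + 1) with 6 group means over 16 samples, two-sided, adjusted over 136630 peaks. Fold changes on that scale understate those of low peaks. In simulated data of that size the test recovered 35 of 100 peaks changed by log2 1 and 99 of 100 by log2 2, with 11 false calls. There all peaks and libraries had the same fixed spread beyond counting error, and only peaks with a mean of at least 20 reads were changed. The real lung samples varied more than the pancreatic ones, so these rates do not carry over to the real calls. Peaks went to the nearest protein-coding start site within 100 kb (GENCODE vM21), the start-site peak being within 1000 bp. Starts are printed as deposited. Whether they count from 0 or 1 is not given.

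Named peaks were the 8 of smallest p per direction without overlap, the 5 genes with most calls per direction, up to 4 genes per list and a set of the study's genes. Those whose call held under all alternatives are described first, others with the sample that undid the call. Members, lists and rules were chosen with earlier results of these data known. Alternatives were a pseudocount of 10, a mean count of at least 20, TMM or quantile normalization, stricter thresholds (1 and 0.05), recovered reads tested with edgeR 4.0.16 and DESeq2 1.42.0, only the 6 samples, a replicate block, GC correction, both, no distal chromosome 6, and each sample left out. Leaving samples out of the list and motif counts, and edgeR and DESeq2 for the difference between contrasts, were added after seeing the data. Some of the study's genes and list members are not reported here. Intervals are exact binomial and cover counting error only. Replicates are separate mice, although cell lines may be shared.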

Additional observations from a re-analysis of the deposited data

How the results depend on the processing

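The count of 23685 called peaks stayed between 18438 and 27891 under every alternative in scaling, filter, pseudocount, tool, samples fitted, GC correction and region, with edgeR at 25117 and DESeq2 at 27891. It was 13882, with 26.5% higher in the lungs, at thresholds of 1 and 0.05, and 11697 to 25330 when 1 sample was left out. Of the limma calls 95.5% were also called by edgeR and 97.9% by DESeq2. The share of calls higher in the lungs was 35.7% under TMM and 44.7% under quantile normalization, and 29.6% to 40.7% without 1 sample. The share called the same way with Smad4 restored was 57.6% to 75.1% without 1 sample. Deviations of samples with the same replicate number correlated by 0.089, 0.127 and 0.032, so the numbers were not taken as pairs. With the replicate block 24534 peaks were called, and no named call was lost. Of 118 called peaks among the 128 named, 80 kept the call under all alternatives run on them (the stricter thresholds were not) and 0 reversed. The losses were 31 without pancreatic sample 3, 22 without pancreatic sample 2 and 21 without lung sample 2. They were 14 without lung sample 3, 12 without lung sample 1 and 11 without pancreatic sample 1. With only the 6 samples 9 were lost, and at most 2 under any other setting that kept all samples. The cause was not tested. At uncalled start sites 18 values changed sign. Smad4 was −0.013 under quantile normalization and −0.0022 to 0.0597 without 1 sample. Cdkn1c was 0.054 with GC correction, with and without the block, and −0.087 to 0.088 without 1 sample, 0.024 without pancreatic sample 2 and 0.011 without sample 3. Il11 was −0.091 to 0.31 and Itga5 −0.023 to 0.24 without 1 sample. Col6a1 was −0.0054 under TMM, −0.047 under quantile normalization, −0.0037 by edgeR, and −0.027 to 0.089 without 1 sample. Id1 was −0.025 under quantile normalization and −0.093 to 0.16 without 1 sample.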
